A study of Homo sapiens with 6 samples.

Results

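Fibroblast growth factor (FGF) ligands, FGF receptors and the proteins that bind or connect them were examined in RNA from 143B cells, an established human osteosarcoma line, with and without deletion of CNTNAP4. The members were the genes whose symbol is FGF followed by a number, together with FGFR1, FGFR2, FGFR3, FGFR4, FGFRL1, FGFBP1, FGFBP2, FGFBP3, FRS2, FRS3, KL and KLB. This rule found 34 of the 54308 genes in the deposited signals and used no measured value, although the family was picked for description with earlier results of these data known. CNTNAP4 encodes a neurexin-like membrane protein, and the study asked how its deletion changes osteosarcoma cells. There were 3 vector control (VC) libraries and 3 CNTNAP4 knockout (KO) libraries, the latter from cells given a CRISPR/Cas9 plasmid against CNTNAP4. Per the methods, the control cells were given a plasmid with a negative control guide RNA. Both groups were 143B cells in serum-containing medium, and the labels give 48 h of transfection for both. The methods differ from the labels in giving a longer incubation, after which red fluorescent cells of both groups were sorted singly into wells. After the deletion was checked 2 colonies were expanded, so the cells were clonal. Which clone each library came from is not given, so effects of CNTNAP4 deletion and of the clone cannot be told apart, and p-values measure the spread between these 3 libraries a group, which may be technical.

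FGFs are secreted signals that bind FGF receptors, which are receptor tyrosine kinases, together with heparan sulfate on the cell surface. The docking proteins FRS2 and FRS3 carry the signal from the receptor to the RAS-ERK and PI3K cascades, and ERK signaling in turn induces inhibitors such as the Sprouty proteins and DUSP6. A few FGFs act as hormones with klotho proteins in place of heparan sulfate, and the FGF11 subfamily stays inside the cell and binds voltage-gated sodium channels. In bone, FGF signaling controls the growth and maturation of cartilage and bone-forming cells.

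Values are log2 signals that had been quantile-normalized between the 6 libraries, so a negative value is a low signal and not a loss, and a difference of 1 is 2-fold. Each fold change is KO minus VC on this scale with its standard error (SE). A gene was tested with limma if each group held at least 2 values, which left 19306 genes, and the Benjamini-Hochberg adjustment covered all of them, with an adjusted p under 0.05 called a change. The linear unit is not stated, so signals are compared between groups for 1 gene and not as levels between genes, and the depth behind each value is unknown. Genes with a value numbered 20693 to 21041 in VC and 20333 to 20761 in KO. Only VC replicate 3 holds a signal for CNTNAP4 itself (-7.18 on the log2 scale), so these signals cannot show its loss in KO. The summed linear signal of 10 mesenchymal and osteosarcoma markers, all 10 with a value, was 1517 to 1690 in VC and 1815 to 2236 in KO, of which VIM alone made up 84.8% to 87.8% without passing the test (adjusted p = 0.0667). Of these markers 4 were called higher and 2 lower in KO, the latter TWIST1 (-0.68) and COL1A2 (-0.81), named after their values were seen. The sums of 6 epithelial markers were 576.8 to 640.1 in VC and 553.2 to 608.6 in KO, nearly all from KRT8 and KRT18. For 4 endothelial markers they were at most 0.076 in VC and 0.113 in KO, for 5 blood markers at most 0.229 and 0.0710, and for 4 neuronal markers 42.65 to 49.25 and 44.3 to 45.68. The neuronal sums came nearly all from TUBB3. Single genes moved under these sums, named after their values were seen. KRT8 was called higher (0.59), EPCAM (-0.67), CLDN4 (-1.89) and the neuronal RBFOX3 (-2.01, adjusted p = 0.0113) lower, and no endothelial or blood marker was called. Across 17698 genes, which are not independent replicates, pairs of VC libraries correlated at 0.990 to 0.992, pairs of KO libraries at 0.985 to 0.990, and pairs from both groups at 0.964 to 0.981.

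Most tested members of the family differed between KO and VC, and most of those that differed fell. In bulk RNA, fewer cells of a type and less RNA per cell cannot be told apart. Of the 34 members, FGF4, FGF6, FGF23 and KLB had no value in any library, 23 had enough values to be tested and 11 did not. Among the 23 tested, 12 fell in KO (FGF1, FGF2, FGF5, FGF12, FGF13, FGF17, FGF18, FGFR1, FGFR2, FGFR3, FRS2 and FGFBP3), 4 rose (FGF11, FGF19, FGF20 and FRS3) and 7 did not pass the test (FGF7, FGF9, FGF10, FGF14, FGFR4, FGFRL1 and KL). The 16 called members are 69.6% of those tested, against 32.9% of all 19306 tested genes, of which 19.8% fell and 13.1% rose. With median-centred libraries 3233 of all tested genes were lower and 3005 higher, while 11 members were lower and 5 higher. By sign alone, 16 tested members were lower and 7 higher, against 59.8% of all tested genes lower. The median log2 fold change of the tested members was -0.69, against -0.13 over all tested genes. In 19 of the 21 members with 6 values (90.5%) the groups did not overlap, against 59.3% of all genes with 6 values. In 13 of them all KO values lay below all VC values and in 6 above, against 36.7% and 22.6% of all genes with 6 values. In the upper 50% of mean signal, 5 of 7 tested members were called (FGF2, FGF5, FGFR1 and FRS2 lower, FGF11 higher), against 39.2% of the genes there (22.5% lower and 16.7% higher).

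The number of called members depended on which libraries were used. It was 2 without VC replicate 1, 5 without VC replicate 2, 3 without VC replicate 3 and 3 without KO replicate 3, and 15 and 13 without KO replicates 1 and 2. Over all tested genes the share called moved the same way, to 7.5%, 13.1% and 6.6% without VC replicates 1, 2 and 3, 10.9% without KO replicate 3, and 47.0% and 23.6% without KO replicates 1 and 2. The members' shares in the same fits were 8.7%, 21.7%, 13%, 14.3%, 71.4% and 56.5%. FGF1 and FGF18 passed in all 6 of these fits, while FGF20 passed in none (highest adjusted p 0.12, without VC replicate 3). No tested member changed its sign in any of the 346 fits of a single member under other settings. KO replicate 1 stood nearest to the VC mean among the KO libraries for 13 of the 16 called members. The same library was also the nearest to VC over all genes, with a score of 20.8 on the first principal component against 48.9 and 73.8 in the other KO libraries and -48.4 to -46.7 in VC.

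**Figure D1:**
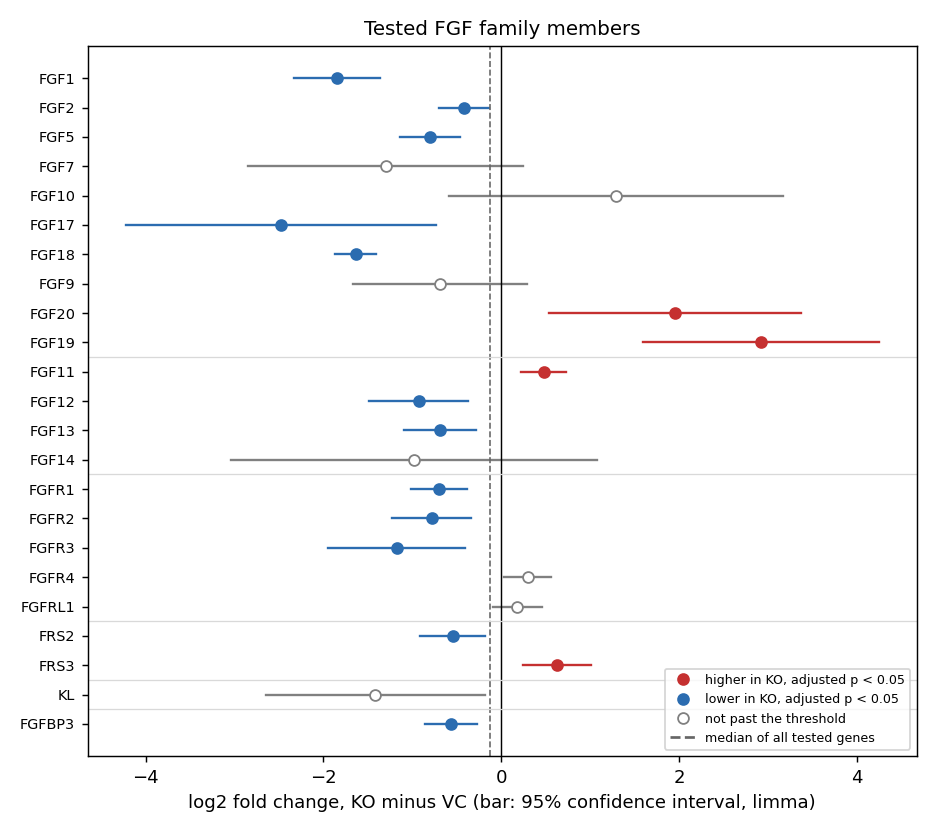
Log2 fold change of the 23 tested FGF family members, KO minus VC (x axis, log2 scale), with 95% confidence intervals from limma as bars and the median of all tested genes (-0.13) as a dashed line. Filled points passed an adjusted p under 0.05, 12 of them lower and 4 higher in KO, and open points did not.

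The stretch before the gene is shown for 4 members: FGF1 and FGF18, which fell in all fits with 1 library left out; FGFBP3, a member that fell and holds a CARE match; and FGF21, a hormone of the family that holds one. The windows come from RefSeq on GRCh38.p14 and end just before the listed start. Capitals mark matches to 2 of 4 motifs searched on both strands, TGATGNAA (CARE, the site of ATF4 and CHOP) and CTTTGA (TCF/LEF). FGF1 (chr5:142698071-142698320, minus strand) is shown for 1 of its 4 listed starts, FGF18 is chr5:171419397-171419646 on the plus strand, FGF21 is chr19:48755424-48755523 on the plus strand and FGFBP3 is chr10:91909487-91909736 on the minus strand.
FGF1: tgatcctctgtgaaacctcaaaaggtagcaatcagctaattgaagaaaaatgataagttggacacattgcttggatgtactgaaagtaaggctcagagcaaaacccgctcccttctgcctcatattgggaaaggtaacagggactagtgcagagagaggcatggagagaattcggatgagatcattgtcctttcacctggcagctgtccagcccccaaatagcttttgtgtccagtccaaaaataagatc
FGF18: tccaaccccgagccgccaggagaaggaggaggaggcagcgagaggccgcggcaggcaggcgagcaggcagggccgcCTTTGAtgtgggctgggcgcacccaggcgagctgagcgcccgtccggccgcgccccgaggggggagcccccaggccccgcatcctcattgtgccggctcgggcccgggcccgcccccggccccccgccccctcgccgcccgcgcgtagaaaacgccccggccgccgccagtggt
FGFBP3: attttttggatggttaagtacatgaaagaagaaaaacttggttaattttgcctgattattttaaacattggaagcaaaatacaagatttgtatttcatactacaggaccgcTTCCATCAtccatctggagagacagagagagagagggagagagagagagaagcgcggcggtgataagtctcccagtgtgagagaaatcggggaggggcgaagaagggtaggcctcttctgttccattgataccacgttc
FGF21: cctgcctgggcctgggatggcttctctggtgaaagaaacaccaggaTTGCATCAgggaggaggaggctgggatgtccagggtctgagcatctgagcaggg
Over 250 bases the FGF18 window held 78.8% G and C with 31 CG pairs, whereas the FGF1 window held 44.8% with 2 and FGFBP3 43.2% with 7. The FGF21 stretch shown is only 100 bases long and held 60.0% with 0, so its count of pairs is not like the others. FGF18 has a TCF/LEF match 174 to 169 bases before the start, FGFBP3 a CARE match 139 to 132 bases before it and FGF21 a CARE match 54 to 47 bases before it, while this FGF1 window had no match. These matches overlap no match of another motif. Of 35116 promoter windows of 250 bases, 3.14% hold a CARE match, 6.57% TGANTCA (AP-1), 14.5% CCGGAA (ETS) and 11.2% CTTTGA. Windows were found for 26 of the 34 members, 42 in all, and the matching members were FGF21, FGFBP3 and FGFR2 for CARE, FGF1 (another start) and FGF13 for AP-1, FRS2 for ETS, and FGF18, FGFRL1 and KLB for TCF/LEF. A match is a string of letters and was not tested as a binding site. Of the 42 member windows, 3 held a CARE match, 2 AP-1, 1 ETS and 3 TCF/LEF. The transcripts of ATF4 and DDIT3 (which encodes CHOP) rose by 1.34 (adjusted p = 0.00815) and 4.34 (adjusted p = 0.00478). FGFBP3 and FGFR2 fell, and FGF21 had a value in 3 libraries only. For AP-1, FOS rose by 0.72 (adjusted p = 0.0449) and FOSL1 did not pass, while FGF1 and FGF13 fell. For ETS, ETV5 rose by 0.85 (adjusted p = 0.0197) and ETV4 did not pass, while FRS2 fell. The part of any of these factors was not tested.

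Among the ligands that act on nearby cells, 9 of 15 could be tested, with 5 lower, 1 higher and 3 not past the test. FGF1 (chr5:142592178-142698070), which binds every FGF receptor, had log2 signals of -0.80, -0.93 and -1.06 in VC replicates 1 to 3 and -2.39, -2.95 and -3.002 in KO replicates 1 to 3. All 3 KO libraries lay below all VC libraries, by more than a log2 unit. The KO signal was 27.8% of the VC signal (log2 fold change -1.85, SE 0.19, adjusted p = 0.00834, highest 0.0412 without VC replicate 3). FGF18 (chr5:171419656-171457623), a ligand that acts on cartilage and bone, had -0.95, -1.14 and -0.90 in VC and -2.67, -2.58 and -2.65 in KO. Its KO libraries agreed more closely than those of FGF1, and the KO signal was 32.2% of VC. The log2 fold change of FGF18 was -1.64 (SE 0.091, 95% interval -1.87 to -1.41, adjusted p = 0.00478, highest 0.0294 without VC replicate 3). FGF1 and FGF18 both lay in the lower 50% of mean signal, at percentiles 30.1 and 30.4 of all tested genes. With 1 added to the linear signal their log2 fold changes were -0.41 and -0.37, and both still passed (adjusted p = 0.00343 and 0.00275).

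FGF2, the basic FGF that is widely made by tumor and stromal cells, had 2.14, 2.20 and 2.09 in VC and 1.82, 1.51 and 1.82 in KO. The groups did not overlap, but the difference was small, with a KO signal 74.6% of VC (log2 fold change -0.42, SE 0.11, adjusted p = 0.0390). FGF2 did not pass with median-centred libraries or a further quantile normalization, and passed in 2 of the 6 fits with 1 library left out (highest adjusted p 0.107, without VC replicate 1). The exons of FGF2 overlap NUDT6 on the other strand, which also fell (1.16, 1.32 and 1.203 in VC, 0.84, 0.32 and 0.15 in KO, log2 fold change -0.79, adjusted p = 0.0336). Whether the counting used strand is not stated, so the reads of these genes may not be told apart. FGF5, which in hair ends the growth phase, had 1.91, 2.03 and 1.91 in VC and 1.41, 1.04 and 0.99 in KO. All KO values were lower, with a log2 fold change of -0.81 (SE 0.13, adjusted p = 0.0151). The exons of FGF5 overlap those of CFAP299 on its own strand. It passed in 3 of the 6 fits with 1 library left out (highest adjusted p 0.0573, without VC replicate 3).

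The signals of the other tested ligands were lower still, at percentile 17.3 of mean signal (FGF9) or below, and spread widely. FGF17, of the same subfamily as FGF18, had -4.49, -5.88 and -3.60 in VC and -6.44, -7.97 and -6.99 in KO. The groups did not overlap, and its log2 fold change was -2.48 (SE 0.69, adjusted p = 0.0456). FGF20 moved the other way, with -5.64, -5.60 and -6.73 in VC and -2.999, -4.73 and -4.38 in KO, a log2 fold change of 1.95 (SE 0.56, adjusted p = 0.0486). With 1 added to the linear signal neither FGF17 nor FGF20 passed, and FGF17 passed in 2 of the 6 fits with 1 library left out (highest adjusted p 0.117, without VC replicate 1). FGF17, FGF20 and FGFR1 lie on chromosome 8, where the median over the other tested genes was -0.32 on the log2 scale, with 34.1% of them lower and 9.32% higher. Whether this chromosome's shift has a part in their values was not tested.

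FGF9, of the subfamily of FGF20, had -3.05, -3.90 and -4.00 in VC and -4.06, -5.00 and -3.98 in KO. The groups overlapped, and the difference of -0.69 (adjusted p = 0.215) did not exceed the spread. FGF10, a mesenchymal signal to epithelia, had -8.05, -8.05 and -8.12 in VC and -5.16, -8.09 and -7.11 in KO, so 1 KO library stood far above the other 5 libraries (adjusted p = 0.227). The exons of FGF10 overlap FGF10-AS1 on the other strand, which had a value only in that library (-6.78), so their reads may not be told apart. FGF7, the keratinocyte growth factor, had -5.58, -7.11 and -6.68 in VC, and its KO values were -7.28 (replicate 1) and -8.24 (replicate 3), replicate 2 being empty (adjusted p = 0.149). None of these passed the test, and FGF7 also has pseudogene copies with which it may share reads.

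Untested ligands had values in few libraries. FGF22 had a value in each VC library (-5.14, -6.09 and -5.24) and none in KO, so it was measured in 1 group only and no fold was formed. FGF3 had -6.38 in VC replicate 1 and -3.68 in VC replicate 3. FGF8 had -5.05, -6.00 and -4.56 in VC and -5.13 in KO replicate 3, a value inside the VC range. FGF16 had a value only in KO replicate 2, at -6.58.

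**Figure D2:**
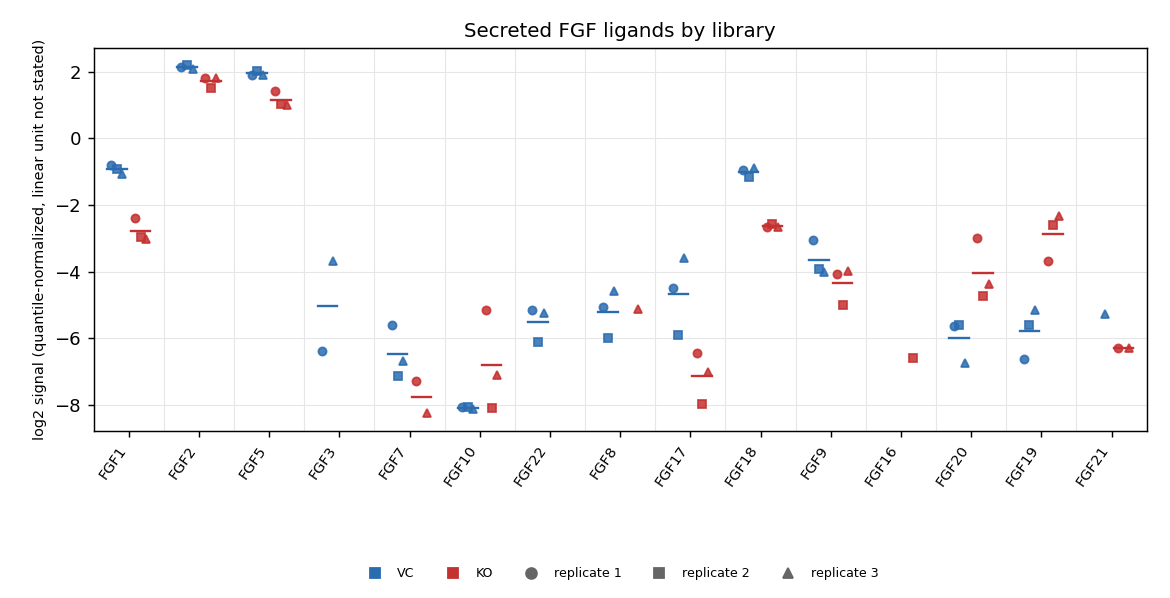
Log2 signal (y axis, quantile-normalized, linear unit not stated) of the secreted FGF ligands with a value, 1 point a library in VC and KO, replicates by marker shape and a line at the mean of 2 or more values. FGF1 and FGF18 lie lower in all KO libraries, at -2.39 to -3.002 and -2.58 to -2.67.

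The hormone-like FGFs held the largest rise among the tested members. FGF19 (chr11:69698232-69704642), which in the intestine signals to the liver to lower bile acid synthesis, had -6.63, -5.58 and -5.13 in VC and -3.67, -2.60 and -2.31 in KO. All KO values lay above all VC values, with a log2 fold change of 2.92 (SE 0.53, 95% interval 1.60 to 4.24, adjusted p = 0.0175). The signal in KO was 7.57 times that in VC, but FGF19 lay low, at percentile 15.4 of mean signal over all tested genes. Its rise shrank to 0.17 on the log2 scale (adjusted p = 0.033) in the setting that adds 1 to linear values. In that setting FGF11 (0.38), FRS3 (0.38) and FGFR4 (0.24) rose by more. FGF19 passed in 3 of the 6 fits with 1 library left out (highest adjusted p 0.0568, without KO replicate 3) and in all 9 other settings tried. FGF21, a metabolic and stress hormone, had -5.27 in VC replicate 3 and -6.28 and -6.27 in KO replicates 1 and 3, too few to test by the rule used here. With no filter on low values FGF21 was lower in KO (-1.002, adjusted p = 0.0437), which rests on that single VC value, and with empty cells taken as 0 and 1 added its adjusted p was 1. FGF23, the phosphate hormone made by bone cells, had no value in any library.

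The intracellular FGFs, which bind sodium channels and do not activate receptors in the usual way, moved in opposite directions. FGF12 had -0.67, -0.996 and -0.64 in VC and -1.26, -1.90 and -1.93 in KO, with a log2 fold change of -0.93 (SE 0.22, adjusted p = 0.0316). FGF13 had -2.75, -2.95 and -2.91 in VC and -3.24, -3.76 and -3.68 in KO, a log2 fold change of -0.69 (adjusted p = 0.0298). Its signal was low, at percentile 21.9, and FGF13 passed in 5 of 9 other settings. It did not pass with 1 added to the linear signal (-0.066, adjusted p = 0.0609) or with trend and robust moderation (adjusted p = 0.0834). FGF11 rose, from 1.90, 1.80 and 1.80 in VC to 2.14, 2.44 and 2.34 in KO (log2 fold change 0.47, SE 0.10, adjusted p = 0.0258). The exons of FGF11 overlap those of the transcript AC113189.2 on its own strand. FGF12 and FGF13 passed in 1 of the 6 fits with 1 library left out and FGF11 in 2 (highest adjusted p 0.0951 and 0.0866 without VC replicate 3 for FGF12 and FGF11, and 0.0919 without VC replicate 1 for FGF13). The exons of FGF13 overlap FGF13-AS1 on the other strand, whose log2 fold change was -1.09 (adjusted p = 0.110). FGF14 had -8.11, -7.67 and -6.97 in VC, and its KO values were -7.47 (replicate 1) and -9.66 (replicate 3), which did not pass (adjusted p = 0.367).

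All 5 receptors had 6 values, and they split in direction. In each the groups did not overlap, as in 59.3% of all genes with 6 values. FGFR1 had 3.62, 3.52 and 3.67 in VC and 3.12, 2.71 and 2.87 in KO. The KO signal was 61.6% of VC, a log2 fold change of -0.70 (SE 0.13, adjusted p = 0.0173). FGFR2 had 0.14, -0.09 and -0.13 in VC and -0.52, -1.12 and -0.77 in KO, a log2 fold change of -0.78 (SE 0.18, adjusted p = 0.0282). FGFR3, a receptor that restrains growth in cartilage, had 0.66, 0.45 and 0.60 in VC and -0.03, -1.22 and -0.58 in KO. Its KO libraries were spread more than those of the other receptors, and its log2 fold change was -1.18 (SE 0.31, adjusted p = 0.0386).

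FGFR4, the main receptor for FGF19, had 2.16, 1.86 and 2.12 in VC and 2.29, 2.37 and 2.38 in KO. All KO values lay above all VC values, but the difference of 0.30 (95% interval 0.034 to 0.56) did not pass the test (adjusted p = 0.0785). FGFR4 passed in 5 of 10 other settings, with 0.38 (adjusted p = 0.0398) for median-centred libraries. FGFRL1, a receptor without a tyrosine kinase domain, had 3.67, 3.39 and 3.67 in VC and 3.87, 3.69 and 3.71 in KO, a difference of 0.18 (95% interval -0.098 to 0.46, adjusted p = 0.249). FGFR1, FGFR2 and FGFR3 passed in 3, 2 and 2 of the 6 fits with 1 library left out, with a highest adjusted p of 0.0656 (without VC replicate 3), 0.0864 and 0.106 (both without VC replicate 1). FGFR3 has pseudogene copies and FGFR1 overlaps exons of LETM2 on the other strand, so a part of their reads may be shared.

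**Figure D3:**
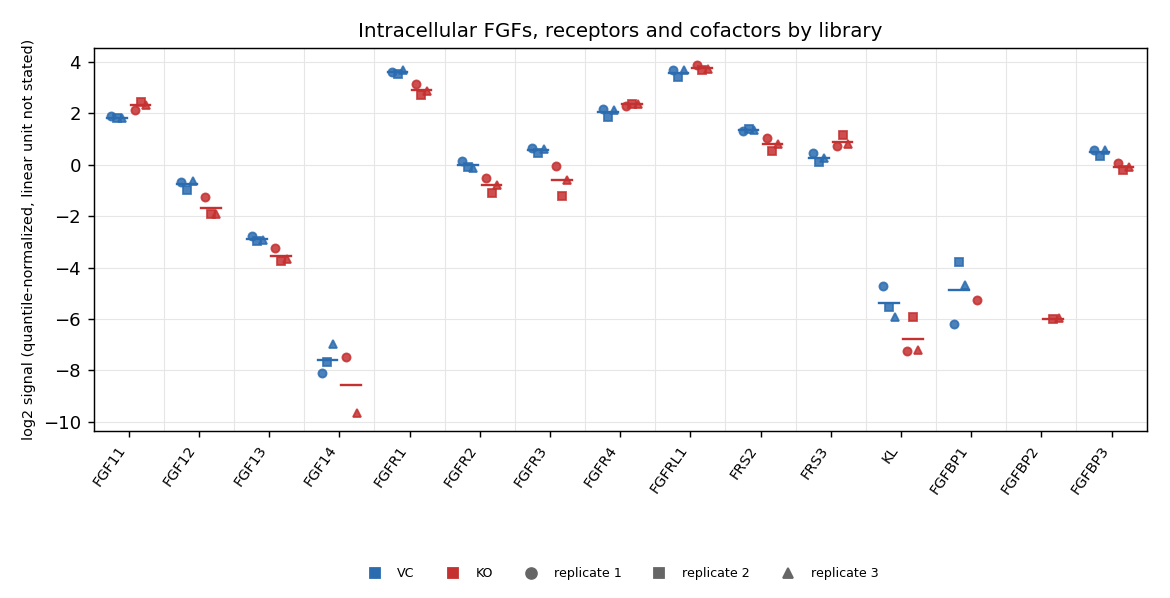
Log2 signal (y axis, quantile-normalized, linear unit not stated) of the intracellular FGFs, receptors and cofactors with a value, 1 point a library in VC and KO and a line at the mean of 2 or more values. FGFR1, FGFR2 and FGFR3 lie lower and FGFR4 and FGFRL1 higher in all KO libraries, the latter pair without passing the test.

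The docking proteins moved apart. FRS2 had 1.32, 1.37 and 1.33 in VC and 1.05, 0.52 and 0.82 in KO, a log2 fold change of -0.55 (SE 0.14, adjusted p = 0.0397). FRS3 had 0.44, 0.12 and 0.25 in VC and 0.74, 1.17 and 0.79 in KO, a log2 fold change of 0.63 (SE 0.15, adjusted p = 0.0324). Neither gene's groups overlapped, and both passed in 2 of the 6 fits with 1 library left out (highest adjusted p 0.106 and 0.0946, both without VC replicate 3). The exons of FRS3 overlap PRICKLE4 on the other strand.

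Of the FGF binding proteins, which release FGFs from heparan sulfate, FGFBP3 was tested and fell. It had 0.57, 0.33 and 0.58 in VC and 0.08, -0.21 and -0.10 in KO, a log2 fold change of -0.57 (SE 0.12, adjusted p = 0.0227). Without VC replicate 3 its adjusted p was 0.0788, and it passed in 3 of the 6 such fits. FGFBP1 had -6.20, -3.78 and -4.69 in VC and -5.28 in KO replicate 1. FGFBP2 had -5.99 and -5.98 in KO replicates 2 and 3 and no value in VC, and its exons overlap PROM1 on its own strand. KL, the klotho coreceptor of FGF23, had -4.71, -5.53 and -5.90 in VC and -7.26, -5.92 and -7.21 in KO. All KO values of KL lay below all VC values, by a narrow gap, and the difference of -1.42 (SE 0.49) did not pass the test (adjusted p = 0.0749), although it did without KO replicate 2 (adjusted p = 0.0386).

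The balance between members was also read within each library, where a scaling of the whole library cancels. These pairs were chosen after their values had been seen and are given without a test. FGFR1 minus FGFR4 was 1.46, 1.66 and 1.55 in VC and 0.84, 0.34 and 0.49 in KO, so the FGFR1 signal relative to FGFR4 fell by 0.998 on the log2 scale. FGFR2 minus FGFR4 changed by -1.08 and FGFR3 minus FGFR4 by -1.48, while FGFR1 minus FGFR2 changed by 0.082 with groups that overlapped. FGFR1 minus FGFR3 changed by 0.48 and FGF2 minus FGF5 by 0.38, each with all KO above all VC. FRS2 minus FRS3 went from 1.07 ± 0.18 in VC to -0.11 ± 0.49 in KO (SD, n = 3). FGF12 minus FGF11 changed by -1.40 and FGF13 minus FGF11 by -1.16. Their lack of overlap adds nothing, since FGF12 and FGF13 lay lower and FGF11 higher in all KO libraries. The same holds for the receptor pairs with FGFR4 and for FRS2 minus FRS3, whose members also moved apart without overlap. FGF1 minus FGF2 changed by -1.43, whereas FGF1 minus FGF18 changed by -0.21 with overlapping groups. These are changes of a difference and not levels, since it is not stated whether the signals are per length.

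**Figure D4:**
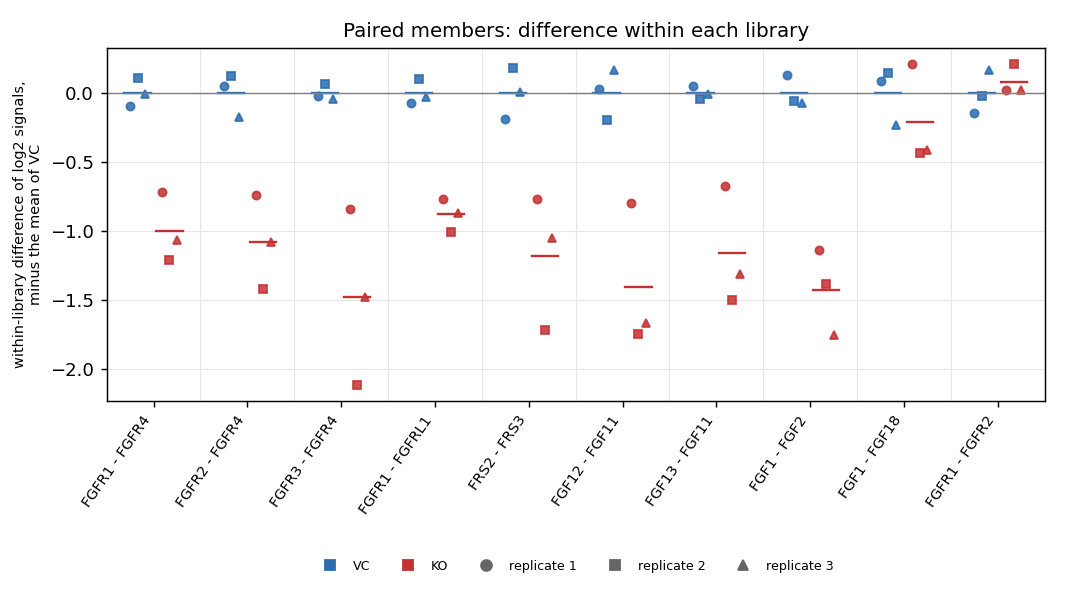
Difference between the log2 signals of paired members within each library, shown after subtracting the mean of VC (y axis, log2 scale), 1 point a library. FGFR1 minus FGFR4 lies about 1 log2 unit lower in KO (-0.998), while FGFR1 minus FGFR2 (0.082) overlaps VC.

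Around the family, the genes of the pathway did not all move the way of the ligands and receptors. In 6 lists of pathway genes, 44 of 84 tested genes were called (52.4%), 24 higher (28.6%) and 20 lower (23.8%). Over all tested genes 32.9% were called, 13.1% higher and 19.8% lower. In the upper 50% of mean signal 39.2% were called, 16.7% higher and 22.5% lower. These shares are the background for each list below. The count of called pathway genes was 9, 19 and 9 without VC replicates 1, 2 and 3. It was 19 without KO replicate 3, and 50 and 34 without KO replicates 1 and 2. Of 25 receptor adaptors and kinases of the MAPK, PI3K and PLC cascades, all tested, 9 fell, none rose and 16 did not pass (36.0% called, median log2 fold change -0.053). That share was near the 32.9% of all tested genes. It was below the 39.2% of the upper 50% of mean signal, where most of these genes lie. SOS1, which activates RAS, fell by 0.98 on the log2 scale (SE 0.23, adjusted p = 0.0307). GAB1, an adaptor that FRS2 complexes recruit, fell by 0.71 (adjusted p = 0.0317), PIK3R1, the regulatory subunit of PI3K, by 0.59 (adjusted p = 0.0286), and HRAS by 0.57 (adjusted p = 0.0290). Each of these genes passed in 2 of the 6 fits with 1 library left out, with a highest adjusted p of 0.0858 to 0.0954, without VC replicate 1 or 3.

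Feedback inhibitors more often rose than fell. Of 12 listed, 11 were tested, of which 7 rose, 1 fell and 3 did not pass (72.7% called, median 0.48). DUSP6, the phosphatase that inactivates ERK, had 5.63, 5.55 and 5.64 in VC and 6.48, 6.94 and 6.77 in KO, a log2 fold change of 1.13 (SE 0.13, adjusted p = 0.00963). SPRY2, an inhibitor of receptor tyrosine kinase signaling, rose by 1.11 (SE 0.13, adjusted p = 0.00898), DUSP5 by 0.96 (adjusted p = 0.0104) and SPRY4 by 0.74 (adjusted p = 0.0136). DUSP6, SPRY2 and DUSP5 passed in all 6 fits with 1 library left out, SPRY4 in 4, with 0.0557 without VC replicate 3. The inhibitor that fell was IL17RD (-0.60, adjusted p = 0.0208), a membrane inhibitor of FGF signaling, named here after its value was seen.

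Of 10 transcription factors and growth genes that ERK signaling induces, 6 rose, none fell and 4 did not pass (60.0% called, median 0.72). EGR1, an immediate early factor, had 2.86, 2.86 and 2.93 in VC and 4.88, 5.38 and 4.53 in KO, a log2 fold change of 2.04 (SE 0.22, adjusted p = 0.00874). IER3 rose by 0.98 (adjusted p = 0.0112), IER2 by 0.96 (adjusted p = 0.00962) and ETV5 by 0.85 (adjusted p = 0.0197). ETV5 passed in 3 of the 6 fits with 1 library left out (highest adjusted p 0.0659, without VC replicate 1), the others named here in all 6. ETV4, the close relative of ETV5, had 5.57, 5.41 and 5.56 in VC and 5.52, 5.38 and 5.45 in KO, a difference of -0.068 that did not pass (adjusted p = 0.549) and took the other sign with median-centred libraries (0.016).

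Of 24 heparan sulfate carriers and enzymes, 21 were tested, with 4 higher, 6 lower and 11 not past the test (47.6% called, median -0.037). HSPG2, the basement membrane proteoglycan perlecan, rose by 1.59 on the log2 scale (SE 0.20, adjusted p = 0.0101). The glypicans GPC6 and GPC4 fell by 1.14 (adjusted p = 0.00856) and 0.97 (adjusted p = 0.0141), and HS6ST1, which adds sulfate to heparan sulfate, fell by 0.82 (adjusted p = 0.0367, rising to 0.104 if VC replicate 1 is left out). HSPG2 and GPC6 passed with each library left out, and GPC4 in 4 of 6 such fits (0.0561 without VC replicate 3). Of 10 other membrane proteins that bind FGF receptors or their complexes, 5 rose and 2 fell (70.0% called, median 0.33). FLRT2, a leucine-rich partner of FGF receptors, fell by 1.79 (SE 0.30, adjusted p = 0.0152, rising to 0.0569 if VC replicate 3 is left out), and its chromosome 14 had a median of -0.39 over its other tested genes, whose part was not tested. The adhesion molecule L1CAM fell by 1.21 (adjusted p = 0.00790). The integrin chains ITGB3 and ITGAV, which pair as a receptor for matrix proteins, rose by 1.38 (adjusted p = 0.0125) and 0.49 (adjusted p = 0.0161). Leaving out VC replicate 3 raised the adjusted p of ITGB3 to 0.0509 and that of ITGAV to 0.0645, and L1CAM passed with each library left out.

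Among the partners of the intracellular FGFs, 7 of 8 were tested, with 2 higher, 2 lower and 3 not past the test (57.1% called, median -0.029). The sodium channel SCN8A fell by 0.87 (adjusted p = 0.0307) and passed in 2 of the 6 fits with 1 library left out (highest adjusted p 0.0933, without VC replicate 3). SCN9A rose by 1.04 from low signals (adjusted p = 0.0313) and the scaffold MAPK8IP2, which intracellular FGFs bind, by 0.41 (adjusted p = 0.0277). MAPK8IP2 lies on chromosome 22, where the median over the other tested genes was 0.29, with 37.8% of them higher, and the part of this shift was not tested. SCN9A did not pass with 1 added to the linear signal, and SCN9A and MAPK8IP2 each passed in 1 of the 6 fits with 1 library left out (highest adjusted p 0.0938 and 0.0917, without VC replicate 3).

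**Figure D5:**
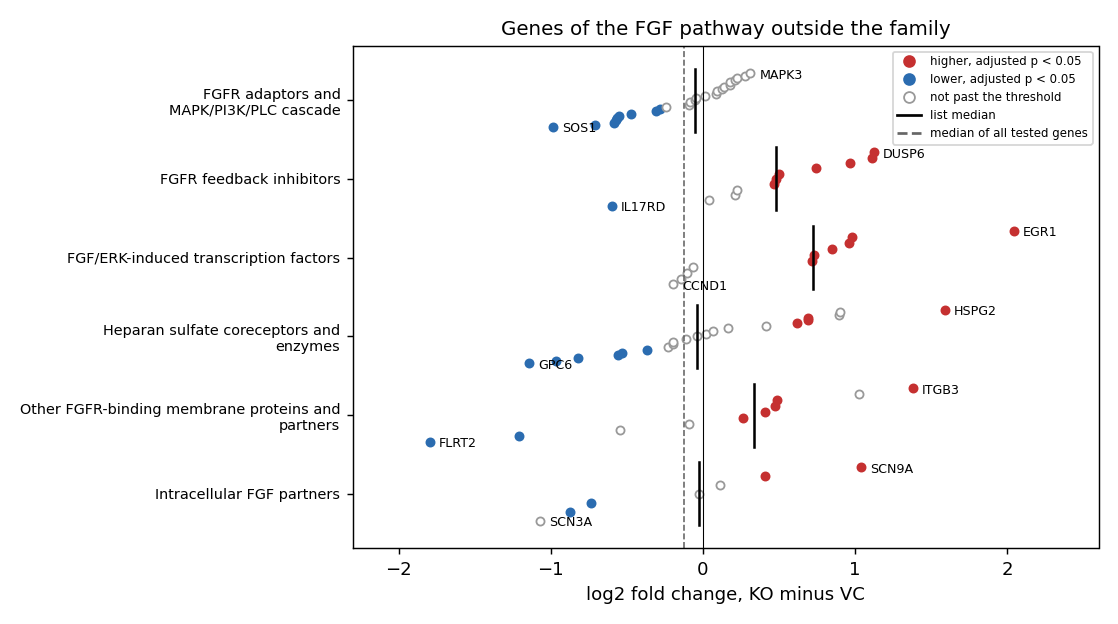
Log2 fold change, KO minus VC (x axis), of every tested gene in 6 lists of FGF pathway genes (rows), with list medians as black marks and the median of all tested genes (-0.13) as a dashed line. The medians of the feedback inhibitors (0.48) and ERK-induced genes (0.72) lie above 0, and that of the receptor adaptors and kinases is -0.053.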

How the data were processed

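The authors sequenced RNA of 143B cells in 3 VC libraries and 3 KO libraries (Illumina TruSeq Stranded mRNA kit per the labels, total RNA on a NextSeq instrument per the methods). The submitters' processing notes name CASAVA, STAR, Partek and GRCh38.p13, and the methods also name CLC Genomics software. The deposited values are log2 signals that the authors had quantile-normalized between libraries, with empty cells for genes without a value. The linear unit and the depth are not given in the sources used here, so no interval for counting error was computed.

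Libraries were grouped from their labels. The signals were compared in R 4.3.3 with limma 3.58.1 (empirical Bayes moderation without trend, two-sided, no covariate), with empty cells left out. Every member is accounted for, with values in each library for called members, those in the upper 50% of mean signal and those measured in 1 group. From each pathway list the 4 called genes with the largest change were named, plus ETV4, ETV5, SPRY4, SPRY2 and DUSP6, and 1 gene that the rule names is not reported here. The members and lists were chosen with earlier results of these data known. Gene positions and overlaps come from GENCODE on GRCh38. The script was tested on simulated data. Alternatives covered scaling, 1 added to the linear signal, filters, moderation, a replicate block, a 2-fold threshold and each library left out.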

Additional observations from a re-analysis of the deposited data

How the results depend on the processing

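None of the 23 members tested in the main fit changed sign under any alternative. FGF8 and FGF21, which the filter leaves out and the counts below do not cover, did. Their log2 fold changes were 0.075 and -1.002 with no filter on low values. With empty cells taken as 0 and 1 added they were -0.028 and 6.2e-05, neither past the threshold. Of 346 single-member fits, 253 stayed on the same side of the threshold, 86 no longer passed and 7 newly passed (FGFR4 in 5, FGF7 and KL in 1 each; FGF21, which the filter leaves out, passed as lower with no filter), and of 392 fits of 25 named pathway genes, 318 stayed, 73 no longer passed and 1 took the other sign, ETV4 at 0.0162 with median-centred libraries. With at least a 2-fold change also asked for, 1840 of 19306 tested genes were called (792 higher, 1048 lower). So were 6 of 23 tested members (2 higher, 4 lower) and 9 of 84 tested pathway genes (6 higher, 3 lower). In the upper 50% of mean signal, where 7 members were tested, 6 were called (2 higher, 4 lower), beside 5702 of 9653 genes (59.1%) in that fit. Without variance moderation, 2442 genes were lower, 7 members were called (2 higher, 5 lower) and 12 pathway genes were lower. There the share called was 23.0% of all tested genes and 30.4% of the tested members. The median of the members was -0.49 after a further quantile normalization, -0.056 with 1 added to the linear signal, -0.042 with empty cells also taken as 0 and -0.42 in the upper 50% of signals. The median of all tested genes was -0.042 with median-centred libraries and -0.023 with 1 added, against -0.13. Calls over all genes were 3233 lower and 3005 higher with median-centred libraries and 3301 and 3092 after a further quantile normalization. Adding 1 compresses low signals by construction, and other causes were not tested. With 1 library left out, the number of genes called was 1223 to 8669 (654 to 2940 higher, 569 to 5729 lower), of members 2 to 15 (0 to 3 higher, 2 to 12 lower) and of pathway genes 9 to 50 (7 to 29 higher, 2 to 21 lower), and the members' median was -0.81 to -0.59. Same-numbered VC and KO libraries deviated from their group means with correlations of 0.0226, 0.00509 and -0.00736 over 17698 genes. Differently numbered libraries gave -0.0304 to 0.0314. These values show no strong shared effect of a replicate number, but cannot show whether libraries were handled in pairs. With the replicate block, 1740 genes (661 higher, 1079 lower), 5 members (1 higher, 4 lower) and 16 pathway genes (7 higher, 9 lower) were called. The share called in that fit was 9.2% of all tested genes and 21.7% of the tested members. The linear unit and depth are unknown, so precision at low signals (FGF7, FGF10, FGF17, FGF19, FGF20 and KL) rests on the spread of 3 libraries a group.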
